A study of Mus musculus with 16 samples.

Results

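The replication-dependent histone genes of mouse gastrocnemius muscle were examined in whole muscle RNA, polysomal RNA and monosomal RNA of mice with 2 or 1 functional copies of Eif6. The genes were taken as all non-control probes whose array gene name begins with Hist1h, Hist2h, Hist3h or Hist4h. Of 34650 gene names on the array, 45 matched, through 52 probes, and 6 of the 45 had several probes. Genes with more than 1 probe were represented by their brightest, judged by mean log2 signal over the 16 arrays, so measured brightness chose the probe. The 45 genes comprised 6 linker histone H1 genes, 12 H2A genes, 10 H2B genes, 8 H3 genes and 9 H4 genes. All 45 were found in RefSeq, where each now carries another symbol (Hist1h2ao, for example, is H2ac23). The pattern also takes in the testis variants Hist1h1t, Hist1h2aa and Hist1h2ba and the pseudogene Hist3h2bb-ps.

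Histones are the proteins around which nuclear DNA is wound. H2A, H2B, H3 and H4 form the core of the nucleosome, and H1 binds the linker DNA between cores. Most of the clustered histone genes have no introns and are transcribed mainly in S phase, and their mRNAs end in a short conserved stem-loop, bound by Slbp, in place of a poly(A) tail. Several of these genes also give longer polyadenylated mRNAs in cells that do not divide, and adult muscle fibres do not divide.

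Gastrocnemius was taken from male C57BL6 littermates aged 8 to 16 weeks, 3 WT mice (Eif6+/+) and 3 heterozygotes (Eif6+/-, called Het on the arrays), a germline loss of 1 allele in all cells. Eif6 encodes a translation initiation factor that binds the large ribosomal subunit. Each mouse gave a whole muscle array and an array of pooled sucrose gradient fractions with at least 2 ribosomes per mRNA (polysomes). Monosome arrays were made of WT mice 1 and 2 and of Eif6+/- mice 1 and 3, giving 6 groups on 16 arrays. RNA was labelled with Cy3, for which the paper names the Agilent Low-Input QuickAmp kit, and each array measured 1 sample. How far this labelling reads histone mRNAs without a poly(A) tail was not tested. Nothing else was stated to separate the mice. Genotype p-values within an RNA kind came from a fit of all 16 arrays with 1 shared spread and no term for the mouse. That spread mixes differences between mice with differences between arrays, and arrays of 1 mouse were treated as independent. The p-values of ratios within a mouse rest on the spread of those ratios between mice.

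Eif6 signal was lower on every Eif6+/- array than on every WT array of the same RNA kind, with differences of -0.93 on the log2 scale in whole muscle, -1.32 in polysomes and -1.82 in monosomes. The muscle markers Ckm, Acta1 and Myh4 were between 12.2 and 17.9 on all arrays. Between 23.5% and 45.9% of non-control spots were well above background per array, which limits what can be said of dim genes. A pair of arrays stood apart, WT polysome 2 and WT monosome 2. Over 231 transcripts with a 5′ and a 3′ probe at least 500 bases apart, the median 5′ minus 3′ log2 signal was -0.39 and 0.20 on these arrays and between -1.77 and -1.22 on the other 14. The monosome arrays of WT mice 1 and 2 correlated at 0.78 over the tested probes, against 0.97 for those of Eif6+/- mice 1 and 3. Results that rest on WT mouse 2 are therefore given with and without it.

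Of the 45 histone genes, 19 were well above background on all 16 arrays and 7 on none. To be tested, a probe had to be detected (well above background) throughout at least 1 of the 6 groups, which 35 histone genes and 20222 probes in all met. The 10 genes not tested were Hist1h1d, Hist1h1t, Hist1h2bb, Hist1h2bp, Hist1h2bq, Hist1h3a, Hist1h3f, Hist1h4m, Hist2h2ab and Hist3h2bb-ps. The tested genes were 4 H1, 11 H2A, 6 H2B, 6 H3 and 8 H4 genes. Because a gene that was bright in 1 group alone could pass this filter, counts over the 35 describe the measured genes and not all members.

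The probes lie in the clusters known for these genes. In the mm9 build, 34 were on chromosome 13 (21814057 to 24026527), 8 on chromosome 3 (96024171 to 96074115), 2 on chromosome 11 and 1 on chromosome 6. The 60-base H2A probes that carry most of the results are printed here because they are close to identical, and capitals mark the longest run that each shares with the Hist1h2ah probe.
Hist1h2ah: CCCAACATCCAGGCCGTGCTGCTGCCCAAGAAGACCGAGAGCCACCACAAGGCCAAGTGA
Hist2h2ac: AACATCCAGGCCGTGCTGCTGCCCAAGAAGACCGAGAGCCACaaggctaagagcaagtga
Hist1h2af: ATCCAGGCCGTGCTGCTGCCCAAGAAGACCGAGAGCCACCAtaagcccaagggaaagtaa
Hist1h2ag: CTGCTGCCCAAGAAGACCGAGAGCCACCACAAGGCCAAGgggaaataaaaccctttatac
Hist1h2ak: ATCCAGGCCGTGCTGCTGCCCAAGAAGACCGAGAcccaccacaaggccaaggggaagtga
Hist1h2an: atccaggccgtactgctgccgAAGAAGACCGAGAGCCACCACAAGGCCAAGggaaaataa
Hist2h2aa2: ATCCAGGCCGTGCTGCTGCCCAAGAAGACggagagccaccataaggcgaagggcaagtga
Hist1h2ao: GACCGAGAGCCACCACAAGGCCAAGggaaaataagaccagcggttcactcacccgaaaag
These 8 probes cover the end of the H2A coding region. Each shared a run of at least 25 bases with between 3 and 7 other H2A members, and 5 of them also with H2afj, a gene outside the clusters. Hist1h2an (chr13:21902669-21902728) and Hist1h2ao (chr13:21902695-21902754) were placed on overlapping bases of 1 strand, and the file gives the Hist1h2ag probe a span of 59681 bases (chr13:23666685-23726365). Signals of these 8 genes can thus come from each other's mRNAs and are not 8 independent measurements. Outside H2A, only the pairs Hist1h3c with Hist1h3f and Hist1h4j with another Hist1h4k probe shared such a run.

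The second set shows the stem-loop at the mRNA's 3′ end, the element that marks this gene class, as far as the probes reach it. The letters searched on both strands were GGCTCTTTT, then at most 2 bases, then AGAGCC. Of 55681 probes on the array 5 held them, among these Hist1h3a, Hist1h3i and Hist2h2bb. The probes of Hist1h3g and Hist1h4m held close variants, and that of Hist1h2ab ended inside the loop. Stretches of 30 bases are printed, with capitals from the first arm to the second or to the end of the probe.
Hist2h2bb: acccaaaaGGCTCTTTTCAGAGCCacttta
Hist1h3i: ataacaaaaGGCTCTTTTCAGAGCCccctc
Hist1h3a: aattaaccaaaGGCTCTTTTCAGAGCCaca
Hist1h3g: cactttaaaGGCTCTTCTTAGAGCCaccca
Hist1h4m: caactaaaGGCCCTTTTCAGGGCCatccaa
Hist1h2ab: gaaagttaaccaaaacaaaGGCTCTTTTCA
Another set of probes lies far down longer transcripts. Of the tested genes these are Hist1h2bc, Hist1h2be, Hist2h2be, Hist2h3c2 and Hist3h2a, whose probes start at base 632, 2375, 1849, 957 and 767 of their transcript, and Hist1h1c, whose probe starts at base 1342. The Hist1h4i probe (start 483) ends in a run of A. This grouping was made after the values were seen and carries no test.

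The members also share promoter letters. RefSeq promoters (GRCm38.p6, from upstream of the start to just after it) were at hand for 39 of the 45 genes. The letters were searched on both strands. CCAAT was in all 6 H1, all 12 H2A, all 7 H2B and all 6 H3 promoters but in 2 of 8 H4 promoters, against 41.1% of 27025 genes. TATAAA was in 21 of 39, against 15.7% of all genes. ATTTGCAT, the octamer known from H2B promoters, was in 5 of 7 H2B and 5 of 12 H2A promoters and in no H1, H3 or H4 promoter, against 1.97% of all genes. These are matches of letters and were not tested as binding sites.

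**Figure D1:**
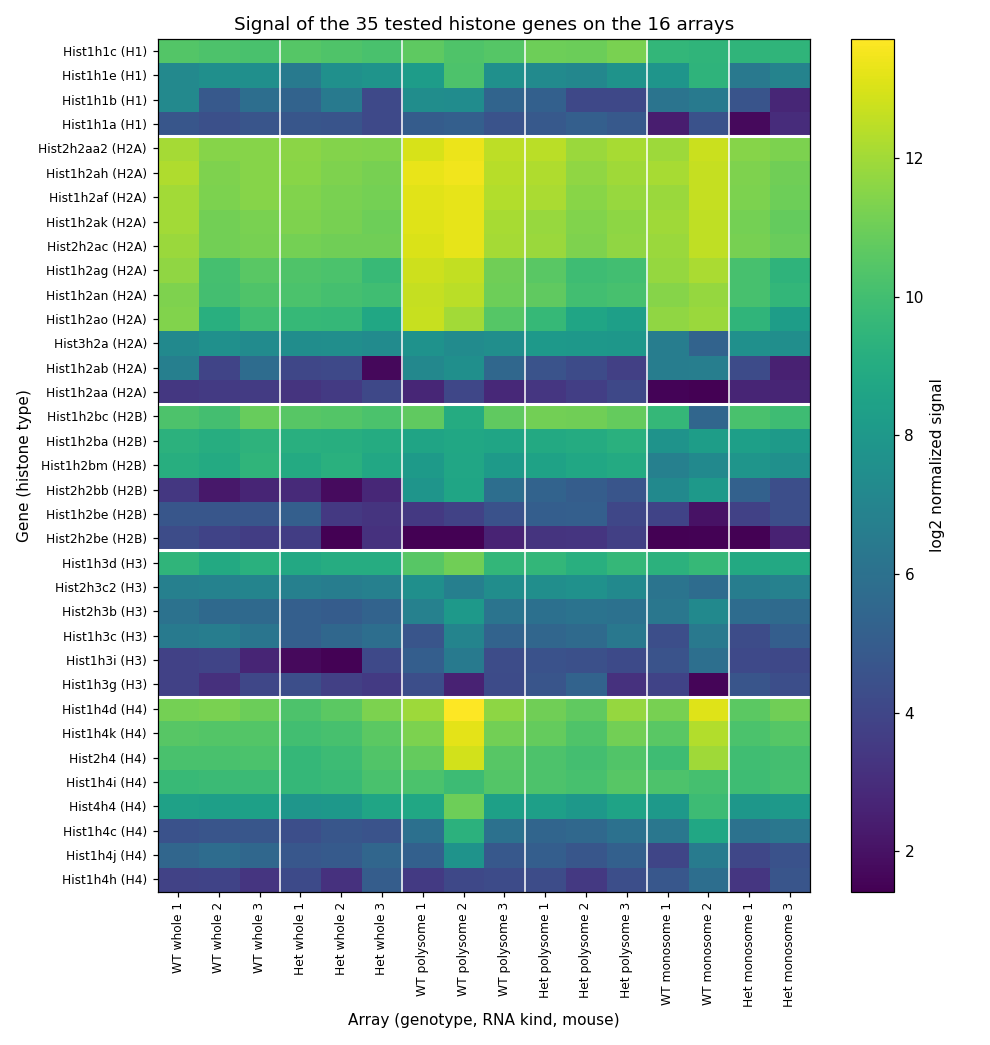
Log2 normalized signal (colour) of the 35 tested histone genes (rows, grouped by histone type) on the 16 arrays (columns, by RNA kind, genotype and mouse). The H2A rows near 12 to 13 are brightest on WT polysome 1 and 2, while most H4 rows are brighter on WT polysome 2 and WT monosome 2.

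In whole muscle, Eif6+/- and WT mice differed little in histone signal. The median log2 difference (Eif6+/- minus WT) over the 35 genes was -0.27, against -0.03 over all 20222 probes, and 29 of 35 differences were below 0, as were 53.3% of all probes. The median was -0.12 without WT mouse 1 and -0.52 with array brightness as a term. The study's threshold is an absolute log2 difference above 1 with an unadjusted p under 0.05. By it 2 histone genes were lower (Hist1h2ab and Hist2h2be, both not well above background in any Eif6+/- mouse) and 0 higher, where 2.95% of all probes were lower and 1.63% higher. No histone gene, and 0% of all probes, had a Benjamini-Hochberg adjusted limma p under 0.05, and the unadjusted p was under 0.05 for 2 histone genes (5.73% of all probes). The methods' t-test called 0 histone genes at the same threshold (1.45% of all probes lower, 0.677% higher). Without WT mouse 1 limma also called 0 (1.95% lower, 0.811% higher). The highest differences were those of the dim genes Hist1h4h (0.45) and Hist1h3g (0.20). Hist2h2be was at 4.26, 3.90 and 3.65 in WT and 3.66, 1.43 and 3.18 in Eif6+/- whole muscle, which leaves no fold above the background.

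In polysomes the differences were larger and split by gene. The median was -0.94, against 0.04 over all probes. It was -0.62 with array brightness as a term and -0.44 with no filter on dim probes. At the same threshold 11 of 35 histone genes were lower in Eif6+/- polysomes, where 1.26% of all probes were lower, and 1 (Hist2h2be) was higher, where 2.19% were higher. Of the 11, 8 were H2A genes. Every Eif6+/- array lay below every WT array for 14 histone genes (8.74% of all probes), and every Eif6+/- array lay above every WT array for 5 (Hist1h1c, Hist1h2ba, Hist1h2bc, Hist2h2be and Hist3h2a; 12.9% of all probes). No histone gene, and 0% of all probes, passed an adjusted p under 0.05, while the unadjusted p was under 0.05 for 16 histone genes (7.52% of all probes). The methods' t-test called 10 lower (0.826% of all probes) and 1 higher (1.22%). Without WT mouse 2 the median was -0.31 and 7 histone genes were lower (1.88% of all probes). Without WT mouse 3 these were -1.40 and 19 (2.14% of all probes). Arrays of slide 1 alone, with 1 Eif6+/- polysome array, gave a median of -1.23. Those of slide 2, with 1 WT polysome array, gave -0.17. Slide and genotype are partly confounded in polysomes. In bulk RNA of this kind, fewer cells of a type and less RNA per cell cannot be told apart.

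**Figure D2:**
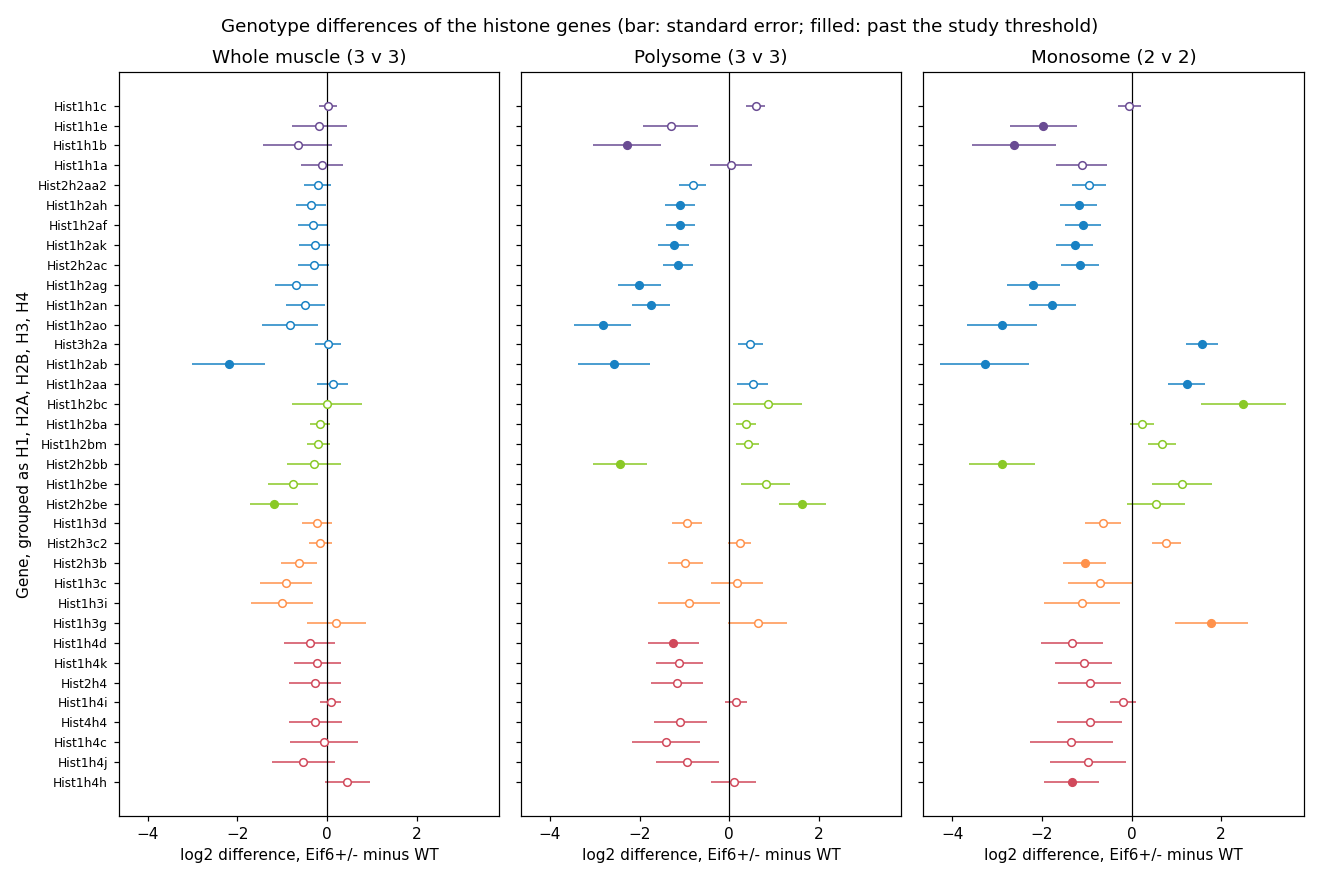
Log2 difference Eif6+/- minus WT with its standard error for each tested histone gene (rows) in whole muscle, polysomes and monosomes; colours mark histone types, filled points passed the study's threshold. In polysomes 11 filled points lie below 0 and 1 above.

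The H2A genes carried the clearest difference. Hist1h2ao measured 12.68, 12.01 and 10.49 in the polysomes of WT mice 1 to 3 and 9.66, 8.65 and 8.38 in those of Eif6+/- mice 1 to 3, so the groups did not overlap. The difference was -2.82 (SE 0.63, limma adjusted p = 0.52) and was -2.68 without WT mouse 2. Within the slides it was -2.68 on slide 1 (WT 1 and 2 against Eif6+/- 1) and -1.97 on slide 2 (WT 3 against Eif6+/- 2 and 3). In whole muscle Hist1h2ao was at 11.40, 9.20 and 9.93 in WT mice and at 9.65, 9.63 and 8.77 in Eif6+/- mice. These whole muscle groups overlapped, and WT mouse 1 was the highest of all 6 mice.

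Hist1h2ag and Hist1h2an followed the same order. Hist1h2ag measured 12.81, 12.60 and 11.08 in WT polysomes and 10.57, 9.88 and 10.01 in Eif6+/- polysomes, a difference of -2.01 (SE 0.48). Hist1h2an differed by -1.75 (SE 0.43). Over the 16 arrays their signals correlated with Hist1h2ao at r = 0.98 and 0.96, as a description of arrays that share mice and probes that share sequence.

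The brightest H2A genes, Hist2h2aa2, Hist1h2ah, Hist1h2af, Hist1h2ak and Hist2h2ac, moved less. Hist1h2ah measured 13.33, 13.47 and 12.39 in WT polysomes and 12.24, 11.69 and 11.96 in Eif6+/- polysomes, a difference of -1.10 (SE 0.34). Hist1h2af, Hist1h2ak and Hist2h2ac differed by -1.09, -1.24 and -1.15. Without WT mouse 2 the differences of Hist1h2ah, Hist1h2af and Hist2h2ac were -0.90, -0.90 and -0.91 and no longer past the study's threshold, while that of Hist1h2ak was -1.03 and past it. The second Hist1h2ak probe, which starts at base 85, differed by -1.03. Hist2h2aa2, the brightest member, was at 12.96 ± 0.45 (SD, n = 3) in WT and 12.14 ± 0.29 in Eif6+/- polysomes and did not pass the threshold. All 5 nonetheless had no overlap between the polysome groups.

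The remaining H2A genes differed from these. Hist1h2ab, whose probe reaches into the stem-loop, measured 7.18, 7.54 and 5.54 in WT polysomes and 4.58, 4.21 and 3.76 in Eif6+/- polysomes, a difference of -2.57 (SE 0.80), with 2 of the 3 Eif6+/- arrays well above background. In whole muscle it was at 6.75, 3.93 and 5.79 in WT mice and was not well above background in any Eif6+/- mouse (measured mean 3.29), which makes it at least 1.84-fold higher in WT (adjusted p = 0.75). Hist3h2a, with its probe far down the transcript, was at 7.69, 7.34 and 7.51 in WT and at 8.07, 7.97 and 7.93 in Eif6+/- polysomes, the opposite order without overlap (0.47, SE 0.29), and did not pass the threshold. Hist1h2aa, a testis variant, was not well above background on any WT polysome array, where it averaged 3.20, against 3.73 in Eif6+/- polysomes, at least 1.09-fold higher in the latter (adjusted p = 0.71).

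**Figure D3:**
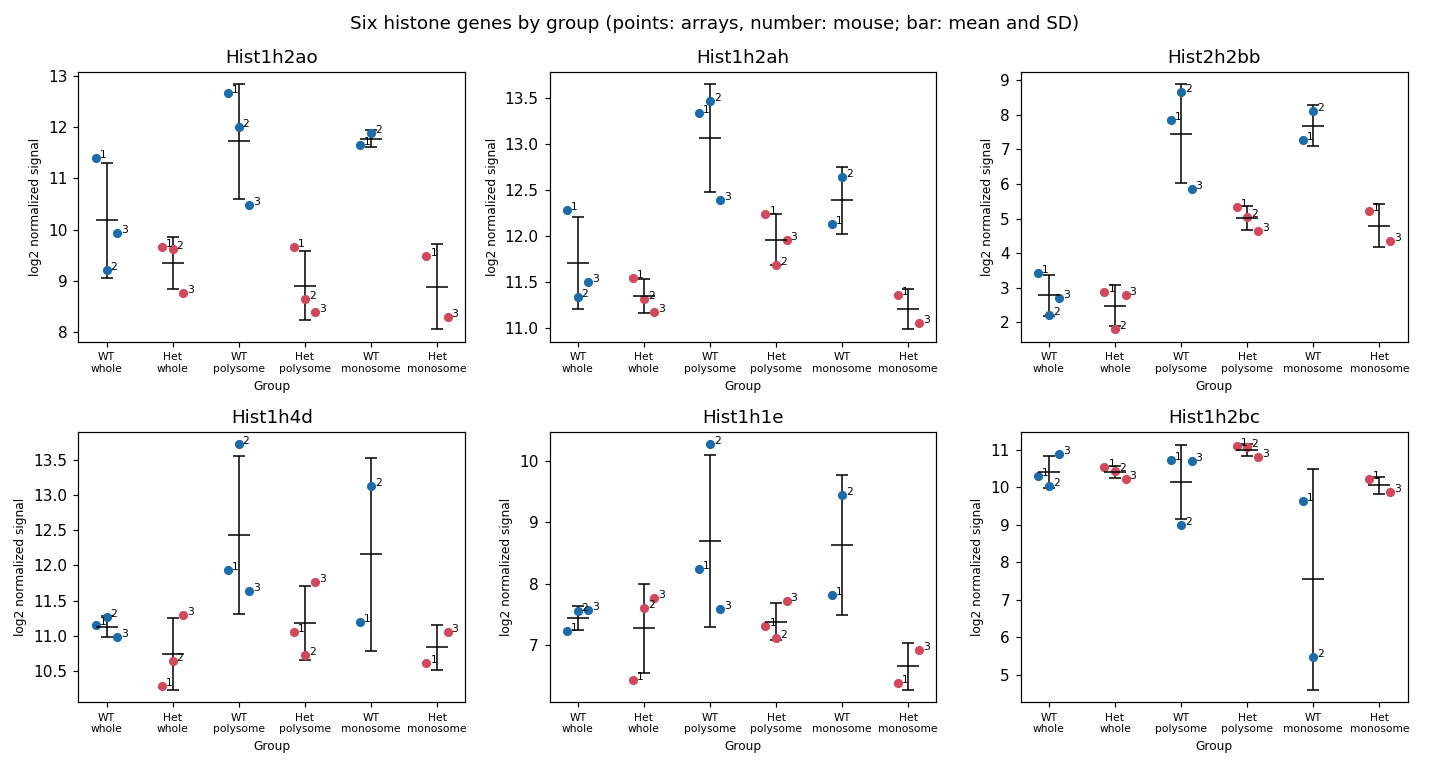
Log2 normalized signal of 6 histone genes by group; points are arrays numbered by mouse, bars the mean and SD. Hist1h2ao runs from 8.29 to 12.68, while Hist1h4d and Hist1h1e stand out for WT mouse 2 and Hist1h2bc is lowest on WT monosome 2 (5.46).

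Markers of immune and dividing cells were highest in WT mouse 1. The summed signal of 8 immune markers was 11.73, 9.71 and 10.86 (log2) in WT whole muscle against 9.33 to 9.78 in Eif6+/- whole muscle, and 12.28, 10.53 and 11.11 in WT polysomes against 9.37 to 10.24. The sum of 18 proliferation markers was 10.46, 9.24 and 9.62 in WT and 9.01 to 9.56 in Eif6+/- whole muscle. In polysomes it was 10.96, 8.95 and 9.74 in WT and 9.5 to 9.99 in Eif6+/- mice. Of the 8 immune markers 6 were tested, of which Lyz2 and S100a9 were lower in Eif6+/- whole muscle at the study's threshold and 0 in polysomes. Of the 18 proliferation markers 10 were tested, 0 passed the study's threshold in whole muscle or polysomes, and Ccne2 was well above background on no array. Mki67, which marks dividing cells, was at 6.37, 3.32 and 3.90 in WT whole muscle, so WT mouse 1 was again the highest. Erythroid and fibroblast markers separated the polysome groups too. The sum of 5 erythroid markers was 14.52, 15.42 and 14.36 in WT and 13.79, 13.34 and 13.58 in Eif6+/- polysomes, and that of 4 fibroblast markers 15.35, 15.13 and 15.33 against 14.73, 14.89 and 14.29. WT mouse 2, whose polysomes were second highest for Hist1h2ao, was the lowest WT mouse for the immune and proliferation sums in whole muscle and polysomes. The part of these cells in the H2A difference was not tested.

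Most H4 genes were lower in Eif6+/- polysomes on average, and WT polysome 2 was by far the highest array. Hist1h4d measured 11.94, 13.72 and 11.64 in WT polysomes and 11.05, 10.73 and 11.76 in Eif6+/- polysomes. WT mouse 2 was far above the rest and the groups otherwise overlapped. The difference of -1.25 (SE 0.57) passed the study's threshold, and without WT mouse 2 it was -0.61 and did not. Hist1h4k (-1.12), Hist2h4 (-1.17), Hist4h4 (-1.10), Hist1h4c (-1.42) and Hist1h4j (-0.93) were likewise highest on WT polysome 2, and none of these 5 passed the threshold. The second probes of Hist1h4d and Hist1h4k differed by -0.97 and -0.79. For Hist1h4k (11.32, 13.20 and 11.11 in WT, 10.80, 10.35 and 11.10 in Eif6+/- polysomes) and Hist2h4 (10.81, 12.90 and 10.52 against 10.29, 10.04 and 10.40) the groups did not overlap. Over the 8 tested H4 genes the median difference was -1.11 and -0.30 without WT mouse 2.

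This pattern moved with the 5′ to 3′ profile of the arrays. Hist1h4c was at 9.31 on WT polysome 2 and 8.74 on WT monosome 2 and between 4.37 and 6.31 on the other 14 arrays. Hist1h4i showed no such rise (9.86 on WT polysome 2, 10.26 and 10.42 on the other WT polysome arrays). Its probe at base 574 was at 7.94 and 5.56 on WT polysome 2 and WT monosome 2, and its 3 probes differed between the genotypes by 0.15, 0.83 and 0.44 in polysomes. Hist1h4h, which is dim, was at 3.50, 4.10 and 4.21 in WT and 4.25, 3.46 and 4.38 in Eif6+/- polysomes. The part of the array profile in these values was not tested.

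**Figure D4:**
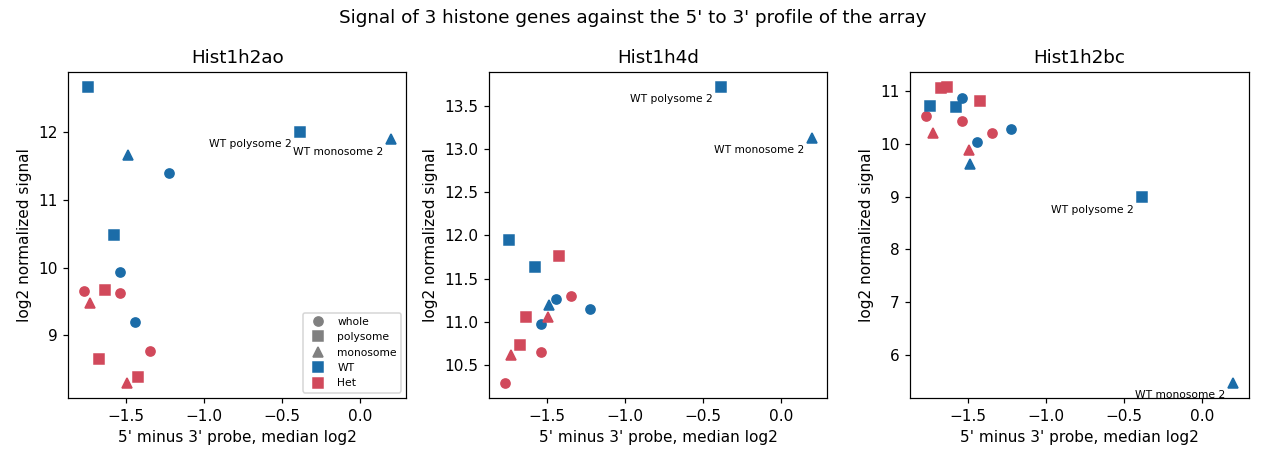
Signal of Hist1h2ao, Hist1h4d and Hist1h2bc (vertical axes, log2) against the median 5′ minus 3′ probe difference of each of the 16 arrays (horizontal axes, log2); colour marks genotype, shape RNA kind. WT polysome 2 and WT monosome 2, at -0.39 and 0.20, hold the highest Hist1h4d and the lowest Hist1h2bc values, whereas Hist1h2ao is highest at 12.68 on WT polysome 1, whose profile is like the others.

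Among H1 genes, Hist1h1b was most like Hist1h2ao. It measured 7.44, 7.38 and 5.39 in WT polysomes and 5.19, 4.09 and 4.08 in Eif6+/- polysomes, without overlap (-2.28, SE 0.76), and over the 16 arrays it correlated with Hist1h2ao at r = 0.90. Its whole muscle values of 7.20, 4.84 and 5.86 in WT and 5.32, 6.46 and 4.15 in Eif6+/- mice overlapped. Hist1h1e followed the H4 genes (r = 0.95 with Hist1h4d), at 8.24, 10.27 and 7.58 in WT and 7.32, 7.12 and 7.72 in Eif6+/- polysomes. Hist1h1c, the brightest H1 gene and the one with a far downstream probe, went the other way, from 10.65, 10.32 and 10.49 in WT polysomes to between 10.96 and 11.27 in the 3 Eif6+/- mice (0.59, SE 0.21, not past the threshold). Hist1h1a stayed between 4.58 and 5.16 on all 6 polysome arrays.

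Of the 6 tested H2B genes, Hist2h2bb alone had a difference below 0 in polysomes. Hist2h2bb, read through its stem-loop, measured 7.84, 8.64 and 5.86 in WT polysomes and 5.33, 5.05 and 4.64 in Eif6+/- polysomes, a difference of -2.44 (SE 0.61) and of -1.84 without WT mouse 2. Its second probe, at base 1340 of the transcript, was at most 2.93 on any array and was not tested. Hist1h2bc, read far downstream, measured 10.72, 8.99 and 10.71 in WT and 11.09, 11.07 and 10.82 in Eif6+/- polysomes, a difference of 0.85 (SE 0.78), and of 0.28 without WT mouse 2. Hist1h2be differed by 0.81 (SE 0.55) and did not pass the threshold. Hist2h2be was not well above background on any WT polysome array, at 1.42, 1.42 and 2.62 against 3.25, 3.32 and 3.76, the 1 upward call, which leaves no fold above the background.

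Hist1h2ba and Hist1h2bm, whose probes start at bases 155 and 144, did not pass the threshold. Hist1h2ba was at 8.61, 8.74 and 8.66 in WT and 8.91, 9.0 and 9.23 in Eif6+/- polysomes, without overlap (0.37, SE 0.23), and Hist1h2bm differed by 0.41 (SE 0.26). Hist1h2ba is known as a testis H2B, yet it was well above background on all 16 arrays. Of 7 testis markers only Hist1h2ba and Hist1h2aa met the detection filter, and Tnp2 and Prm1 were well above background on no array.

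No H3 gene passed the threshold in polysomes. Hist1h3d, the brightest, measured 10.51, 11.07 and 9.59 in WT and 9.57, 9.16 and 9.63 in Eif6+/- polysomes (-0.94, SE 0.33), with Eif6+/- mouse 3 inside the WT range. Hist2h3b was at 6.82, 8.00 and 6.16 against 5.96, 6.09 and 5.98 (-0.98, SE 0.40). Hist2h3c2, read far downstream, differed by 0.24 (SE 0.26). Hist1h3c and Hist1h3g, both below 7 on every array, differed by 0.17 and 0.64, and Hist1h3i by -0.90. Without WT mouse 2 the differences were -0.60 for Hist1h3d, -0.48 for Hist2h3b, -0.30 for Hist1h3i and 0.83 for Hist1h3c.

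Set by probe place, all 6 tested genes read far downstream had a difference above 0 in polysomes (0.24 to 1.63, median 0.70). Of the other 29 tested genes 21 were below 0 (median -1.10). Without WT mouse 2 the medians were 0.45 and -0.48, with 5 of the 6 above 0 (Hist2h3c2 at -0.02) and 22 of the 29 below 0. In whole muscle the medians of the same groups were -0.08 and -0.28.

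Monosomes, with 2 mice a genotype, gave a similar list with less certainty, because 1 of the 2 WT arrays is WT monosome 2. The median over the 35 genes was -1.05, against 0.10 over all probes, and -0.28 without WT mouse 2. At the study's threshold 13 histone genes were lower, where 11.5% of all probes were, and 4 were higher, where 17.2% were. Leaving out WT mouse 1 or 2, or taking 1 slide alone, leaves 1 WT monosome array, which is assumed to vary like the other groups. No histone gene passed an adjusted p under 0.05, which 0.499% of all probes did, and the unadjusted p was under 0.05 for 19 histone genes (33% of all probes). The adjusted count rose to 22 histone genes, with 10769 of all probes, without WT mouse 1 and to 21, with 8227 of all probes, within slide 2, and it was 1 with normexp and 2 in the authors' table. The methods' t-test called 4 lower (0.89% of all probes) and 1 higher (1.41%). Within slide 1 the median was -0.42 and 2 histone genes were lower, where 1.11% of all probes were. Within slide 2 the median was -1.59 and 22 were lower, where 20.7% of all probes were, and without WT mouse 1, too, 22 were lower, where 23% of all probes were.

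Hist1h2ao measured 11.66 and 11.90 in WT and 9.48 and 8.29 in Eif6+/- monosomes, a difference of -2.90 (SE 0.78, adjusted p = 0.086), and of -2.78 without WT mouse 2. Hist1h2ag (-2.20), Hist1h2an (-1.77) and Hist2h2bb (-2.89) were called in the same direction, as they were in polysomes. Hist1h2ab and Hist1h1b were not well above background in Eif6+/- monosomes (means 3.40 and 3.68, against 6.68 and 6.30 in WT), so they were at least 6.17-fold and 4.57-fold higher in WT. Hist1h4h was called lower too (-1.33), on values of 4.78 and 5.89 against 3.34 and 4.66. Higher in Eif6+/- monosomes were Hist1h2bc, at 9.63 and 5.46 in WT and 10.21 and 9.88 in Eif6+/- mice (2.5, SE 0.95), and Hist3h2a (1.57, SE 0.35). For both, the low value was on WT monosome 2, where neither was well above background, and without that mouse the differences were 0.42 and 0.93 and not past the threshold. Hist1h3g and Hist1h2aa also passed the threshold upwards, but Hist1h3g was not well above background in WT monosomes, nor Hist1h2aa in either group, and neither has a fold.

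Polysome signal was set against whole muscle signal of the same mouse. After quantile normalization this ratio gives the place of a gene among the mRNAs of each fraction, not the amount or share of its mRNA bound to ribosomes. In WT mice the median log2 ratio over the 35 genes was 1.19, against 0.05 over all probes. It was 0.62 with normexp, 0.71 in the authors' table and with array brightness as a term, 0.77 with no filter on dim probes and 0.81 with the mean of all tested probes of a gene. It was lowest, at 0.31, within slide 2, where polysome and whole muscle arrays come from different mice and 1 WT polysome array remains. At the study's threshold 17 histone genes were higher in polysomes, where 8.4% of all probes were, and 1 was lower (Hist2h2be), where 11.7% were. By adjusted limma p under 0.05, 12 histone genes passed, against 20.4% of all probes, and by unadjusted p 20 did, against 37.5%. Of the 12, 8 were the sequence-sharing H2A genes, 2 were H4 genes and 2 were H2B genes.

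**Figure D5:**
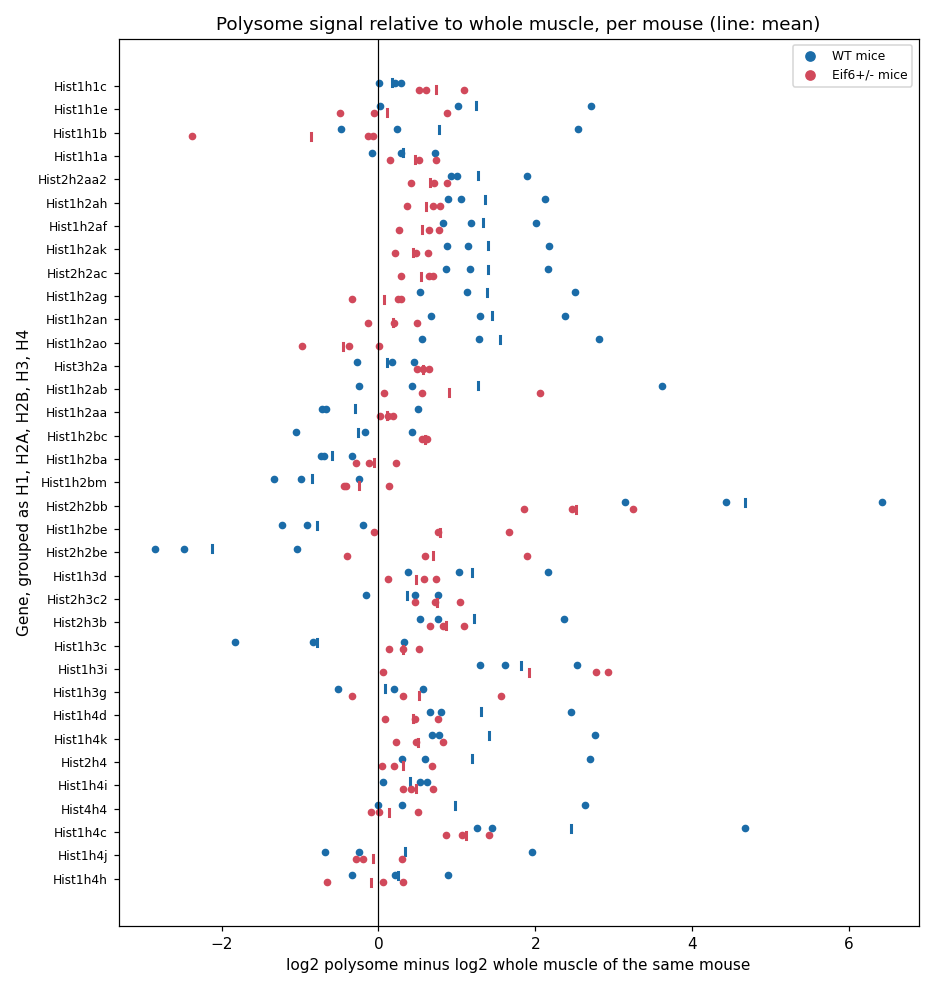
Log2 polysome minus log2 whole muscle signal of the same mouse for each tested histone gene (rows), WT and Eif6+/- mice in 2 colours, short lines the means. The 3 WT points of Hist2h2bb lie between 3.15 and 6.42, on whole muscle values of which 1 of 3 was well above background.

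The WT ratios of the 8 sequence-sharing H2A genes were all above 0. Those of Hist1h2ah were 1.05, 2.12 and 0.89 (mean 1.35, SE 0.28, adjusted p = 0.022), those of Hist1h2ao 1.28, 2.81 and 0.55 (mean 1.55, SE 0.42, adjusted p = 0.043) and those of Hist2h2aa2 0.92, 1.89 and 1.0 (mean 1.27, adjusted p = 0.020). WT mouse 2 was the highest each time. Hist1h2ak, Hist1h2af, Hist2h2ac, Hist1h2an and Hist1h2ag had mean ratios between 1.34 and 1.45. The second Hist1h2ak probe had a mean WT ratio of 0.11, against 1.40 for the first, and a mean Eif6+/- ratio of -0.35, against 0.44. Without WT mouse 2 the median over the 35 genes was 0.51. There 4 histone genes passed the study's threshold upwards, where 8.44% of all probes did, and 3 downwards (Hist2h2be, Hist1h2bm and Hist1h3c), where 10.2% did. The adjusted p was under 0.05 for 9 histone genes and 3398 of all 20222 probes. The adjusted p was passed by 1 histone gene without WT mouse 3, by 2 without WT mouse 1, by 2 with array brightness as a term and by 1 with no filter on dim probes. The methods' t-test called 6 higher (4.57% of all probes) and 1 lower (8.02%).

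Hist2h2bb was bright in polysomes and near background in whole muscle. In whole muscle it was at 3.42, 2.22 and 2.71 in WT mice, where 1 of 3 arrays was well above background, and its WT ratios were 4.43, 6.42 and 3.15 (mean 4.67, SE 0.57, adjusted p = 0.0052; 3.79 without WT mouse 2). With whole muscle values this dim, the size and rank of these ratios are uncertain. In Eif6+/- whole muscle it was on no array well above background (mean 2.48), so that its polysome mean of 5.01 was at least 1.39-fold higher (adjusted p = 0.046). On the monosome arrays it was also bright, at 7.27 and 8.10 in WT and 5.23 and 4.36 in Eif6+/- mice. It was thus brighter on every polysome and monosome array than on any whole muscle array. Hist1h3i, another gene read through the stem-loop, had WT ratios of 1.30, 2.53 and 1.61 (mean 1.81, SE 0.56) and was on no Eif6+/- whole muscle array well above background (mean 2.46, against 4.38 in polysomes), so that it has no fold there.

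Hist1h4c had WT ratios of 1.44, 4.67 and 1.26 (mean 2.46, SE 0.62, adjusted p = 0.033) and Eif6+/- ratios of 1.07, 0.86 and 1.41, above 0 in all 6 mice, although 1 of 3 Eif6+/- whole muscle arrays was well above background. Hist1h4d (1.30, adjusted p = 0.047), Hist1h4k (1.41), Hist2h4 (1.20), Hist1h1e (1.25), Hist1h3d (1.19) and Hist2h3b (1.22) passed the study's threshold in WT mice with the highest ratio in WT mouse 2. Without that mouse these 6 mean ratios were between 0.45 (Hist2h4) and 0.73 (Hist1h4k) and none passed, while Hist1h4c was at 1.35 and passed. The second probes of Hist1h4d and Hist1h4k had mean ratios of 0.32 and 0.35 in WT and -0.16 and -0.13 in Eif6+/- mice, against 0.44 and 0.51 for the first probes in Eif6+/- mice. Hist1h2bm (-0.98, -0.24 and -1.33) and Hist1h2ba (-0.69, -0.34 and -0.74) had ratios below 0 in all 3 WT mice and did not pass it. Hist2h2be was not well above background in WT polysomes and was at least 1.26-fold higher in whole muscle. Hist1h3c had a mean ratio of -0.78 (SE 0.38).

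In Eif6+/- mice the ratios were smaller and closer together. The median was 0.48, against 0.12 over all probes, with 29 of 35 genes above 0, as were 57.8% of all probes. At the study's threshold 2 histone genes (Hist2h2bb and Hist1h3i) were higher, where 7.43% of all probes were, and 0 were lower, where 5.88% were. By adjusted p 1 passed (Hist2h2bb), against 7.36% of all probes, and by unadjusted p 7, against 28.8%. The methods' t-test called 2 higher, against 4.32%. The adjusted count was 0 without any 1 of WT mice 1 and 3 and the 3 Eif6+/- mice. It was also 0 with slide or array brightness as a term and with no filter on dim probes. In these settings 0 to 1064 of all probes passed. Without WT mouse 2 it was 4, with 3123 of all 20222 probes. Hist1h2ah had ratios of 0.69, 0.36 and 0.78, Hist1h2ao of 0.01, -0.98 and -0.38, Hist1h2bm of -0.42, -0.44 and 0.13 and Hist1h1b of -0.13, -2.38 and -0.07. Genes read far downstream had mean ratios of 0.57 to 0.79.

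The difference between the genotypes in this ratio was tested directly. Its median was -0.41, against 0.16 over all probes. The sign of this median was not stable, since it was 0.17 with array brightness as a term, against -0.92 without WT mouse 3. At the study's threshold 4 histone genes had a lower ratio in Eif6+/- mice, where 7.33% of all probes did, and 2 a higher one, where 6.59% did, so these shares are close to the background. No histone gene, and 0% of all probes, passed an adjusted p under 0.05, while the unadjusted p was under 0.05 for 7 histone genes, which is 20% of them against 17% of all probes. The methods' t-test called 0 lower (5.59% of all probes) and 1 higher (2.93%). The 4 were Hist1h2ao (-2.0, SE 0.60, adjusted p = 0.17), Hist1h2ag (-1.32, SE 0.53), Hist1h2an (-1.26, SE 0.47) and Hist2h2bb, which was on no Eif6+/- and on 1 of 3 WT whole muscle arrays well above background, so that no size is given for it. The whole muscle and polysome arrays of every mouse lay on different slides, with the polysomes of WT mice 1 and 2 and Eif6+/- mouse 1 on slide 1 and those of the other mice on slide 2, so slide and genotype are partly confounded here. With slide as a term 1 histone gene had a lower ratio, where 6.88% of all probes did. Those with a higher ratio were Hist2h2be, whose WT polysome signal was not well above background, and Hist1h2be (1.57, SE 0.51), which turned to -0.09 with array brightness as a term. Hist1h1b (-1.63, SE 0.92) and Hist1h3c (1.1, SE 0.54) did not pass. Without WT mouse 2 the median was -0.10. There 1 histone gene, Hist1h2ao (-1.36), had a lower ratio, where 7.18% of all probes did. A higher one was seen for 3, Hist2h2be, Hist1h2be (1.5) and Hist1h3c (1.65), where 6.98% of all probes had one.

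Between polysomes and monosomes of the same 4 mice, nearly all histone genes were brighter in polysomes. The median difference was 0.74, against 0.17 over all probes, and 33 of 35 genes were above 0, as were 56.6% of all probes. At the study's threshold 8 were higher in polysomes, where 13.8% of all probes were, and 0 lower, where 8.26% were. No histone gene, and 0% of all probes, passed an adjusted p under 0.05, with an unadjusted p under 0.05 for 26 histone genes (41.1% of all probes). This 0 depended on the setting. The adjusted count of histone genes was 21 with normexp (5114 of all 20222 probes), 21 in the authors' table (5260 of 20285), 15 with 75th percentile scaling (5096) and 17 of 19 over genes detected on all arrays (4702 of 9135). With no pairing within a mouse it was 7 (5256 of all probes). Only WT mouse 2 had its polysome and monosome arrays on different slides. The slide term and leaving out that mouse therefore gave the same fit. That fit and the one without WT mouse 1 rest on 1 WT mouse. Their medians were 0.75 and 0.74. The adjusted count was 0, as it was over all probes, with no filter on dim probes, with array brightness as a term and with the mean of all tested probes of a gene. Mice without a monosome array do not enter this comparison. Without Eif6+/- mouse 1 or 3, which leaves 1 Eif6+/- mouse, the median was 0.79 each time. The methods' t-test called 5 higher (7.35% of all probes) and gave 1 histone gene an adjusted p under 0.05 (408 of all probes). Hist1h1c (1.09, 0.84, 1.53 and 1.81 in WT 1, WT 2, Eif6+/- 1 and Eif6+/- 3), Hist1h2bm, Hist1h3d, Hist1h4j and Hist1h1b were higher by 1.32, 1.20, 1.01, 1.03 and 1.03. Hist1h2bc was higher by 1.61, with 3.53 in WT mouse 2 and 0.88 to 1.09 in the others. Hist1h1a, not well above background on any monosome array, was at least 1.59-fold higher in polysomes. Hist1h2aa was below background in all monosomes and has no fold. The lowest differences were those of Hist1h4h (-0.61), Hist1h4c (-0.17) and Hist1h3g (0.07).

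Other genes of histone supply were read from lists set apart from the members. Of 11 replication-independent histone genes, which are transcribed throughout the cell cycle, 9 were tested, and in polysomes 0 passed the study's threshold in either direction (median -0.33, range -0.96 to 0.17). The summed log2 signal of the 11 genes was 13.79, 14.07 and 13.37 in WT and 13.34, 12.97 and 13.16 in Eif6+/- polysomes, which did not overlap. The list includes H2afj, which shares a run of at least 25 bases with 5 H2A member probes. The sum and the H2afj value are thus not independent of those members. H3f3b, an H3.3 gene, was at 9.77, 9.32 and 8.85 in WT and 8.78, 8.38 and 8.98 in Eif6+/- polysomes, which overlapped, and H2afv (-0.96) and H2afj (-0.93) had the lowest differences. Of 20 genes of histone gene transcription, 3′ processing and decay, 11 were tested, and 0 passed in whole muscle or polysomes (polysome median 0.61). Slbp, the stem-loop binding protein, was between 1.78 and 4.80 on all arrays and was not tested. Of 9 histone chaperones 7 were tested, and in polysomes Asf1a (1.99) and Nap1l4 (1.12) were higher and Chaf1b (-1.26) lower in Eif6+/- mice at the study's threshold. Cell type markers were read the same way. Of 5 erythroid genes 3 (Hba-a1, Hbb-b2 and Alas2) were lower in Eif6+/- polysomes, and 0 of 8 skeletal muscle, 4 endothelial and 4 fibroblast genes and of 1 tested satellite cell gene passed there.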

How the data were processed

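RNA from gastrocnemius of 3 WT and 3 Eif6+/- mice was hybridised to 16 1-colour Agilent arrays. The authors scanned the arrays and deposited the output of Agilent Feature Extraction (version 11.0.1.1), whose processed signal is an intensity per spot that is background-subtracted and not scaled between arrays. The authors' deposited table holds log2 values after quantile normalization and served as an alternative. Probe coordinates are those of the files (mm9).

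Control and outlier spots were left out, spots of 1 probe were averaged as log2 intensity, and the 16 arrays were quantile normalized. The 20222 probes detected throughout at least 1 group were tested with limma 3.58.1 (R 4.3.3), and p-values were adjusted by Benjamini-Hochberg across these probes. Ratios of RNA kinds were formed within a mouse, since the series description states that every RNA kind came from the same animals. The study's threshold was an absolute log2 difference above 1 with p under 0.05. For a probe below background throughout a group a lower bound of the fold was computed against the lowest signal well above background. The precision is limited by the number of arrays. The tests were tried on simulated data.

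Named with values were the 2 brightest tested genes of each histone type, the 3 highest and 3 lowest of each comparison and those with an adjusted p under 0.05, and some others chosen after their values were seen. Lists covered replication-independent histones, histone mRNA transcription, processing and decay, chaperones, and markers of muscle, blood, immune, endothelial, fibroblast, satellite, dividing and testis cells. The members and lists were chosen with earlier results of these data known. Alternatives concerned background, scaling, filter, probe choice, slide, brightness, pairing, the methods' t-test and each mouse left out.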

Additional observations from a re-analysis of the deposited data

How the results depend on the processing

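The limits are the 3 mice (2 for monosomes) of each genotype, the sequence shared by 8 H2A probes and the profile of WT polysome 2 and WT monosome 2. In polysomes the median (Eif6+/- minus WT) was -0.44 with no filter on dim probes and -0.17 within slide 2, and ranged from -1.40 to -0.31 with 1 mouse left out (lowest without WT mouse 3, highest without WT mouse 2). The lower genes there numbered 7 to 19 with 1 mouse left out, where 0.648% to 2.27% of all probes were lower. In monosomes each slide holds 1 array of each genotype, and leaving out a mouse with a monosome array leaves 1 in its group, so those calls borrow their spread from the other groups. There the median was -0.57 with normexp, -0.64 in the authors' table, -0.42 and -1.59 within slides 1 and 2, and -1.57 to -0.28 with 1 mouse left out, and the lower genes numbered 7 with 75th percentile scaling, 8 in the authors' table, 8 with all arrays above background, 2 and 22 within slides 1 and 2, 4 by the methods' t-test and 5 to 22 with 1 mouse left out. In whole muscle the lower genes numbered 0 with normexp, in the authors' table, with all arrays above background and by the methods' t-test (0.138% to 1.45% of all probes). They numbered 1 with 75th percentile scaling (1.71%), 1 with slide as a term (2.28%) and 5 with brightness of the array in the fit (3.13%). With 1 mouse left out they numbered 0 to 3 (1.62% to 5.01%). Within a slide the polysome and whole muscle arrays come from different mice, so ratios there are not those of single animals. Lower ratios in Eif6+/- mice numbered 1 with slide as a term (6.88% of all probes), 0 with array brightness (3.82%) and 0 by the methods' t-test (5.59%). They numbered 2 with no pairing within a mouse (3.87%) and 1 to 8 with 1 mouse left out (6.31% to 7.59%). In WT mice the higher ratios numbered 10 and 2 within slides 1 and 2, 6 by the methods' t-test and 4 to 19 with 1 mouse left out, and those with an adjusted p 1 with no filter, 0 within either slide and by the methods' t-test, 2 with array brightness and 1 to 9 with 1 mouse left out. In Eif6+/- mice the median ratio was 0.27 with normexp, 0.18 with 75th percentile scaling, 0.66 within slide 1 and 1.03 with array brightness. The higher ratios there numbered 0 with normexp, in the authors' table and with all arrays above background (1.04% to 4.06% of all probes). With 1 mouse left out they numbered 1 to 3 (6.31% to 8.87%). Between polysomes and monosomes the median was 0.56 with normexp and 0.93 and 0.14 within slides 1 and 2. The higher genes there numbered 2 with normexp (3.09% of all probes), 2 in the authors' table (3.38%) and 3 of 19 with all arrays above background (11.1%). They numbered 0 with array brightness (0.401%) and 5 by the methods' t-test (7.35%). The ratio difference of Hist1h2be turned to -0.35 within slide 2 and -0.094 with array brightness. A term for the replicate number, shared by both genotypes, gave 14 lower histone genes in Eif6+/- polysomes (1.53% of all probes), 11 in monosomes (12.2%) and 2 in whole muscle (3.5%). No link between WT and Eif6+/- mice of the same number was stated. With no pairing within a mouse, 15 WT ratios (6.64%), 2 Eif6+/- ratios (6.14%) and 6 polysome to monosome differences (14.7%) were higher. The cause of these shifts was not tested.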
